A study of Mus musculus with 36 samples.

Results

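The respiratory chain of the inner mitochondrial membrane passes electrons from NADH and succinate to oxygen through complexes I to IV and pumps protons, and complex V, the ATP synthase, uses the proton gradient to make ATP. Each complex has a conserved core that carries the cofactors or the catalytic sites, surrounded by many small accessory subunits that hold the complex together, and most of the accessory subunits are short proteins encoded in the nucleus. In a lymph node, resting lymphocytes rely largely on this pathway, and the node's other cells (stroma, endothelium, myeloid cells and adjoining fat) carry the same subunits. The transcripts described here are the subunits of complexes I, III, IV and V by name. They are the probe sets listed under 1 gene symbol starting with Ndufa, Ndufb, Ndufc, Ndufs or Ndufv (complex I), Uqcr (complex III), Cox4 to Cox8 (complex IV) or Atp5 (complex V), without the Ndufaf assembly factors. This gave 78 of the 18193 genes named on the arrays, seen by 160 of 45137 probe sets, with 78 probe sets for complex I (36 genes), 16 for complex III (8 genes), 35 for complex IV (17 genes) and 31 for complex V (17 genes). Ndufa4 was kept under complex I by its name, although the protein is now placed in complex IV.

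RNA came from mesenteric lymph nodes of mice treated over 1, 2, 3, 27 or 35 days with a soluble lymphotoxin-beta receptor, or given PBS (day 0). The soluble protein captures lymphotoxin and related ligands before they reach the receptor on cells, whose signal maintains the stroma of adult nodes. Each of the 6 groups had 3 samples, each measured on 2 Affymetrix arrays with different probe sets, array A and array B. No later PBS group and no control fusion protein were described, the strain, sex and age of the mice were not given, and it was not stated whether samples are separate mice. The length of treatment, the day the nodes were taken and contact with a foreign protein therefore cannot be told apart, and the p-values reflect only how far these samples spread.

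Median intensities lay between 273 and 299.5 over the array A measurements and between 149.9 and 165.2 over those of array B. A probe set was tested if it lay above its array type's median on at least 3 of 18 arrays. On array A, 127 of the 143 member probe sets were tested, 118 of them above the median on all 18 arrays, and 16 were too dim. On array B, 8 of 17 were tested. In all, 72 of the 78 genes had a tested probe set. The other 6 were the muscle isoform Cox7a1, the testis isoforms Cox6b2 and Cox7b2, and Cox7c, Atp5md and Ndufb4. On array A, 3 samples stood apart from the fitted group means, with array weights (1 for an average array) of 0.269 for day 3 replicate 3, 0.232 for day 27 replicate 2 and 0.287 for day 35 replicate 3. Counts without these 3 samples are given for day 27, day 35 and late against early treatment. The 3 were picked by that distance. Without them, more of all tested probe sets were called in both directions in these comparisons.

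To show what lies just upstream of such genes, the 120 bases before the annotated start are printed for the member with the smallest adjusted p at day 35 in each complex, among genes called lower with a single promoter window in the RefSeq table (GRCm38.p6). The capitals mark a GC box (CCGCCC, the complement of GGGCGG, bound by Sp1-type factors) or an ETS core (CTTCCGG, the complement of CCGGAAG, bound by GABPA and related factors). Ndufc1 (chr3:51408956-51409075, minus strand) and Uqcrh (chr4:116075071-116075190, minus strand) come first, then Cox5a (chr9:57521112-57521231, plus strand) and Atp5h (chr11:115419920-115420039, minus strand).
Ndufc1: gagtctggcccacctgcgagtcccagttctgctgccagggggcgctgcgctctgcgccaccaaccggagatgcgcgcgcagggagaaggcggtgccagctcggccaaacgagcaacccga
Uqcrh: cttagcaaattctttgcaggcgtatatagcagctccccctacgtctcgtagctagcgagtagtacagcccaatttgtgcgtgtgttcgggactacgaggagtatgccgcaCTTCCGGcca
Cox5a: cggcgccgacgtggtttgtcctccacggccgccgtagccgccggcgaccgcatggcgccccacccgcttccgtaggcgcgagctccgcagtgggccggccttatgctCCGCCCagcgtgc
Atp5h: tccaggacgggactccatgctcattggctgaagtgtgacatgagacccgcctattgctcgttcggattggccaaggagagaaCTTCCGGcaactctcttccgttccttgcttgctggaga
In the Uqcrh promoter the ETS core began 10 bases before the start, in that of Atp5h 38 bases before it, and in that of Cox5a the GC box began 13 bases before it. The Ndufc1 stretch held none of the motifs searched. RefSeq windows of 300 bases (250 before and 50 after the start) were found for 64 of the 78 member genes, 69 windows in all. Searched on both strands, CCGGAAG was in 15 of the 69 windows (21.7%), against 8.86% of all 32851 windows. GGGCGG was in 40.6% of the member windows, against 35.7% of all. The NRF1 motif core GCATGCGC was in 11.6% against 2.71%, the YY1 motif AAGATGGCG in 8.7% against 1.4%, and TATAAA in 13% against 13.6%. These are letter matches and say nothing of binding in these nodes.

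Over the time course, 0 of the 127 tested member probe sets on array A, of 71 genes, were called at days 1, 2 and 3. At day 27, 19 fell, against 2.6% of all tested probe sets, and at day 35, 72 fell, against 5.58%. In each sample, the log2 intensity of every tested member on array A was centred on its mean over the 18 arrays and averaged over the 127 probe sets. This mean ran from 0.078 to 0.11 in PBS samples, from 0.11 to 0.15 at day 1 and from 0.12 to 0.14 at day 2. It was 0.070, 0.14 and -0.19 at day 3, from -0.21 to -0.040 at day 27, and from -0.33 to -0.17 at day 35. All 6 samples of days 27 and 35 were thus below all PBS, day 1 and day 2 samples. Day 3 replicate 3 lay among the late samples, replicate 2 lay among those of days 1 and 2, and replicate 1 lay between the lowest PBS sample and the late ones.

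**Figure D1:**
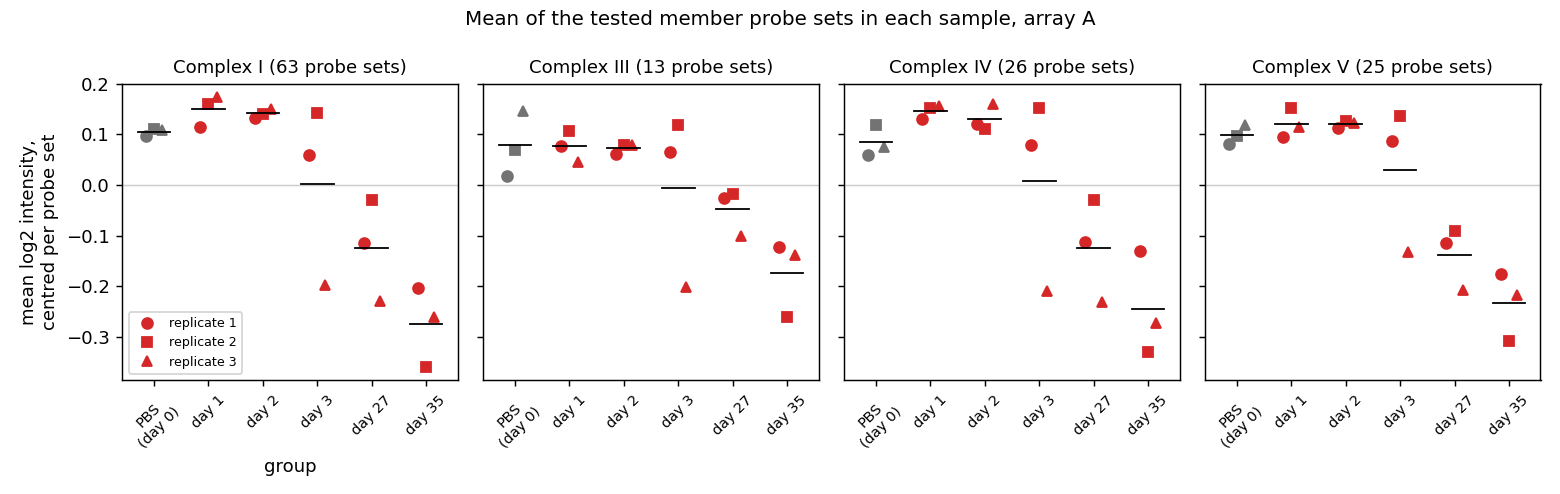
Mean centred log2 intensity (y axis) of the tested member probe sets of each complex in every sample on array A, by group (x axis), with PBS in grey, the soluble receptor in red, marker shape for the replicate number and a line at the group mean. In complex I the 3 samples at day 35 lie between -0.36 and -0.20 and the PBS samples between 0.096 and 0.11, and day 3 replicate 3 lies low in all 4 complexes.

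At days 1, 2 and 3, limma called 0 of the 127 members on array A (background 0.0164%, 0.114% and 0.556% of all 12231 tested probe sets), with 2, 2 and 16 members at an unadjusted p under 0.05, against 411, 675 and 1236 of all 12231. Their median log2 change against PBS was 0.044 at day 1 (0.022 over all tested probe sets), 0.027 at day 2 (0.026 over all) and -0.081 at day 3 (0.019 over all). Without the 3 samples of low weight, the day 3 median was 0.0063 in complex I, 0.020 in complex III, 0.026 in complex IV and 0.016 in complex V.

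At day 27, 19 members (15.0% of those tested) were called lower and 0 higher, against a background of 2.6% called lower. The median change of the members was -0.22, against 0.046 over all tested probe sets. By complex, 10 of 63 probe sets were called lower in complex I (median -0.23), 1 of 13 in complex III (-0.14), 2 of 26 in complex IV (-0.21) and 6 of 25 in complex V (-0.24). In 64 of the 127 members all 3 samples of day 27 lay below all 3 PBS samples, which held for 9.69% of all tested probe sets. The count of calls depended on single samples. It was 2 without day 27 replicate 3, 3 without PBS replicate 3, 6 without day 27 replicate 1, 7 without PBS replicate 1 or 2, and 39 without day 27 replicate 2, whose weight was low. Without the 3 samples of low weight, 66 were called lower and 1 higher, against a background of 5.43% called lower. Of all 12231 tested probe sets, 768 were then called higher, against 71 with all samples. By complex, 34 of 63 probe sets were then called lower in complex I, 4 of 13 in complex III, 14 of 26 in complex IV and 14 of 25 in complex V.

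At day 35, 72 of the 127 members (56.7%) fell and 0 rose, against a background of 5.58% called lower and 1.77% called higher. The median change was -0.34 against 0.032 over all tested probe sets, and 118 of the 127 were below 0. All 3 samples of day 35 lay below all 3 PBS samples in 96 members, against 13.2% of all tested probe sets. All 19 members called at day 27 were among the 72, and both days were set against the same PBS samples. With 1 probe set per gene, the brightest tested, 44 of 71 member genes fell, against 4.76% of all 7801 genes. The count of 72 was 32 without day 35 replicate 2 and 46 without PBS replicate 2 or without PBS replicate 3, with 0 called higher each time. Without the 3 samples of low weight, 80 were called lower and 0 higher. The background was then 7.27% called lower, with 942 of all 12231 called higher. By complex the 80 were 42 of 63 in complex I, 7 of 13 in complex III, 15 of 26 in complex IV and 16 of 25 in complex V. In a bulk node, fewer cells rich in these transcripts and less of the transcripts per cell cannot be told apart.

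A measure of RNA quality moved with the late days. On array A, the log2 ratio of the 3′ to the 5′ control probe set of beta actin ran from 0.15 to 0.19 at day 35 and from 0.084 to 0.165 at day 27, against -0.029 to 0.059 in PBS samples. At days 1 and 2 it ran from -0.073 to 0.056. In day 3 replicates 1, 2 and 3 it was 0.014, 0.125 and 0.073, where the mean of the members was 0.070, 0.14 and -0.19. On day 3, replicate 3 was lowest in the members and replicate 2 was highest in this ratio, and the ratio of both lay above all PBS samples. The same ratio of Gapdh ran from -0.031 to 0.085 at day 35, against -0.013 to 0.021 in PBS samples, which overlap. With the beta actin ratio as a covariate, the members' median change at day 35 was -0.34 and 0 members were called, and 0.0654% of all tested probe sets were called. With the Gapdh ratio as a covariate, 67 members were called. On array B the beta actin ratio ran from 0.25 to 0.30 at day 35 and from 0.18 to 0.25 at day 27, against 0.046 to 0.075 in PBS samples. At days 1, 2 and 3 it ran there from -0.041 to 0.195. The part of RNA quality in the result was not tested, and the beta actin ratio and the treatment time cannot be told apart by this design.

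The members were also divided by place in the complex, a division made after their values had been seen. Of 26 probe sets of core subunits on array A, 6 were called lower at day 35, with a median change of -0.12. The core class follows common naming and is not limited to subunits with cofactors or catalytic sites. In complex III it holds Uqcrc1 and Uqcrc2 beside Uqcrfs1. Of the other 101, 66 were called lower, with a median of -0.39. These 101 are accessory subunits, isoforms and all ATP synthase subunits except Atp5a1, Atp5b and Atp5c1, so they include its c ring and small F1 subunits. At day 27 the counts were 1 of 26 (median -0.060) and 18 of 101 (median -0.25). Without the 3 samples of low weight, 4 of 26 core and 62 of 101 other probe sets were called lower at day 27, and 6 of 26 and 74 of 101 at day 35. At day 27, 1 core probe set was then called higher, as were 768 of all 12231 tested probe sets. The difference between the 2 classes was not tested.

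**Figure D2:**
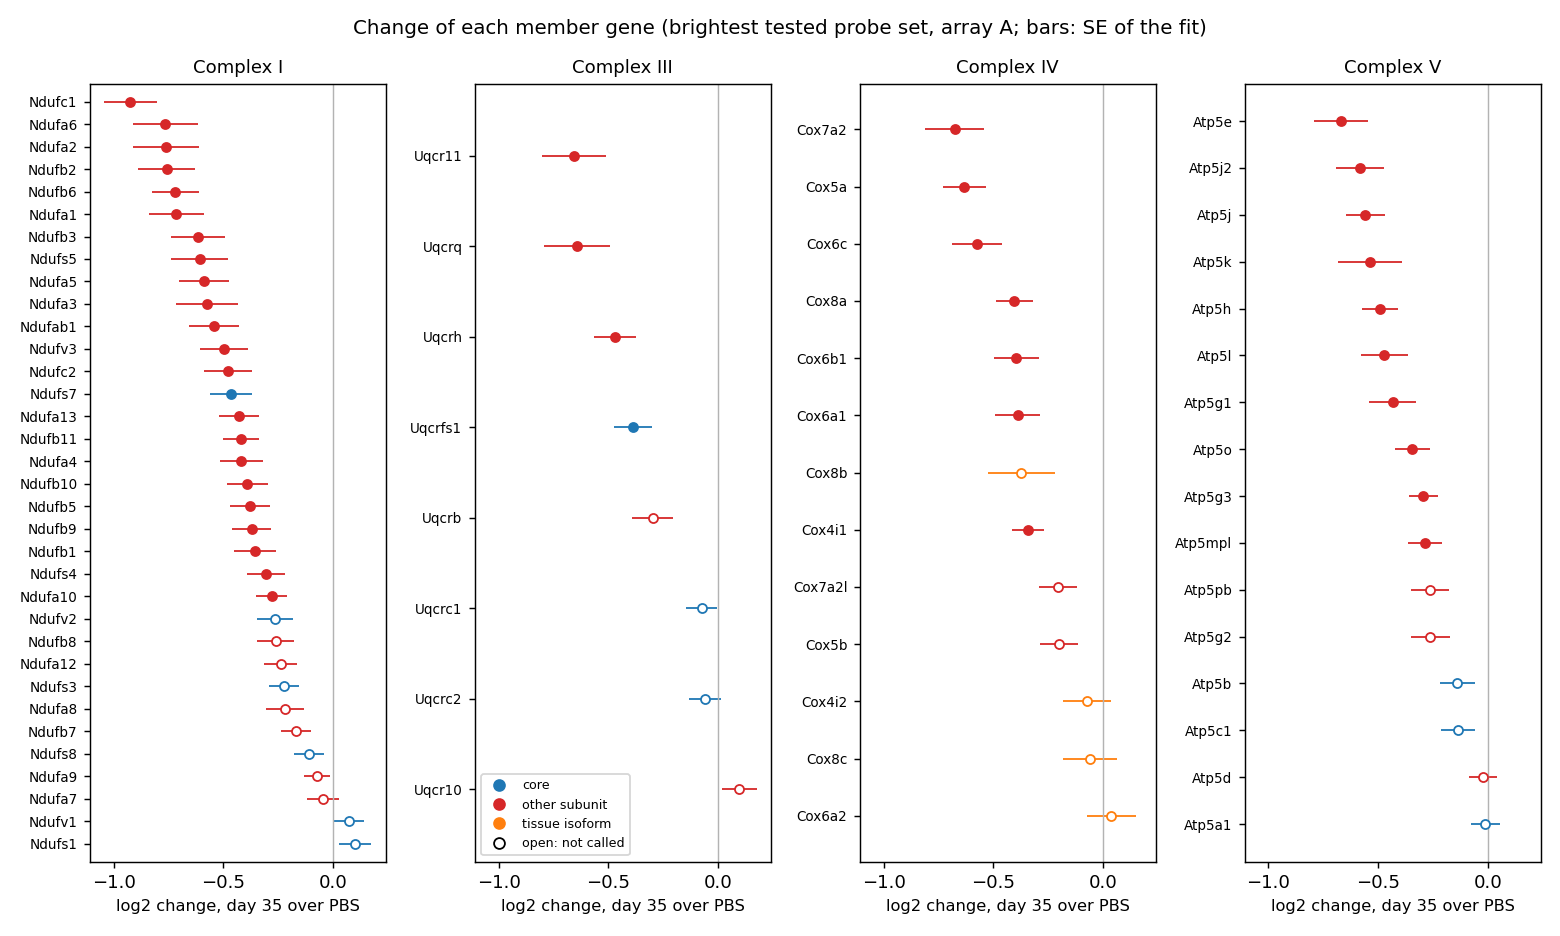
Log2 change at day 35 over PBS (x axis) of each member gene on array A (y axis, ordered within its complex), with the SE of the fit as a bar, core subunits in blue, other subunits in red, tissue isoforms in orange and open symbols for genes not called. The core genes run from -0.47 (Ndufs7) to 0.10 (Ndufs1) and the others from -0.92 (Ndufc1) to 0.098 (Uqcr10).

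Complex I oxidises NADH and passes the electrons to ubiquinone. At day 35, 39 of its 63 probe sets and 23 of its 34 genes on array A fell, with a median of -0.37 over probe sets. The accessory subunits accounted for 34 of these calls among 47 probe sets (median -0.42) and the core for 5 of 16 (median -0.18).

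The largest change at day 35 on array A was in Ndufc1, a small accessory subunit of the membrane arm. Its intensity was 617, 529 and 566 at day 35, against 1088, 1052 and 1099.5 in PBS samples. Every day 35 sample lay far below every PBS sample. At day 3 it was 897, 919 and 644, the low value again in replicate 3, and at day 27 it was 808, 789 and 591. The log2 change was -0.58 (SE 0.12, adjusted p = 0.0123) at day 27 and -0.92 (SE 0.12, adjusted p = 0.000427) at day 35. Days 1 and 2 gave means of 1031 ± 32.8 and 1072 ± 56.6 (SD, n = 3 each), close to the PBS mean of 1079.9 ± 24.7.

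Ndufb6, another accessory subunit of the membrane arm, read 538, 535 and 690.5 at day 35, against 999, 942 and 941 in PBS samples. Its lowest PBS sample was well above its highest day 35 sample. It fell by 0.72 (SE 0.11, adjusted p = 0.000904), and at day 27, with 738, 687 and 629, it had changed by -0.49 (SE 0.11, adjusted p = 0.0148). Ndufb2, of the same arm, read 519.8, 446 and 543 at day 35, against 801, 835 and 912 in PBS samples, again with no overlap. Its change was -0.76 (SE 0.13, adjusted p = 0.00191) at day 35 and -0.51 (SE 0.13, adjusted p = 0.0333) at day 27.

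Next by adjusted p came Ndufa1, a single-pass membrane subunit encoded on the X chromosome, Ndufa6, a matrix-side subunit of the LYR family, and Ndufb11, also X-linked. Ndufa1 averaged 1278 ± 119.8 at day 35 and 2092 ± 87.5 in PBS samples (SD, n = 3 each), a change of -0.71 (SE 0.13, adjusted p = 0.00251). Ndufa6 averaged 569.8 ± 59.6 at day 35 and 965 ± 49.5 in PBS samples (SD, n = 3 each), a change of -0.76 (SE 0.15, adjusted p = 0.00431). Ndufb11 changed by -0.42 (SE 0.082, adjusted p = 0.0046). Among the other called members were Ndufab1, the mitochondrial acyl carrier protein, at -0.54 (SE 0.11, adjusted p = 0.00773), Ndufs4 at -0.31 (SE 0.088, adjusted p = 0.04), and Ndufa4, now placed in complex IV, at -0.42 (SE 0.098, adjusted p = 0.0137). A second probe set of Ndufab1 was at -0.19 (SE 0.083, adjusted p = 0.188), not called.

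The core subunits of complex I were mixed. Ndufs7, which carries the last iron-sulfur cluster before ubiquinone, changed by -0.47 (SE 0.097, adjusted p = 0.00676) at day 35. Ndufs3 and Ndufv2 missed the threshold, at -0.22 (SE 0.068, adjusted p = 0.0525) and -0.26 (SE 0.081, adjusted p = 0.0562). Ndufv1, which binds NADH and the flavin, was at 0.075 (SE 0.069, adjusted p = 0.552). Ndufs1, the largest core subunit, read 713, 763 and 743 at day 35 and 789, 694 and 819 at day 27, against 689, 699 and 680.3 in PBS samples. Against PBS its change at day 35 was 0.10 (SE 0.074, adjusted p = 0.446), which misses the threshold. It was the 1 member that rose between the early and the late days, by 0.15 (SE 0.048, adjusted p = 0.0369). The gene of complex I with the largest adjusted p was Ndufa4l2, a paralogue of Ndufa4 known as a hypoxia target. It read 378, 422 and 453 on array B at day 35, against 376, 417 and 455 in PBS samples, which overlap, a change of 0.0057 (SE 0.12, adjusted p = 0.984).

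**Figure D3:**
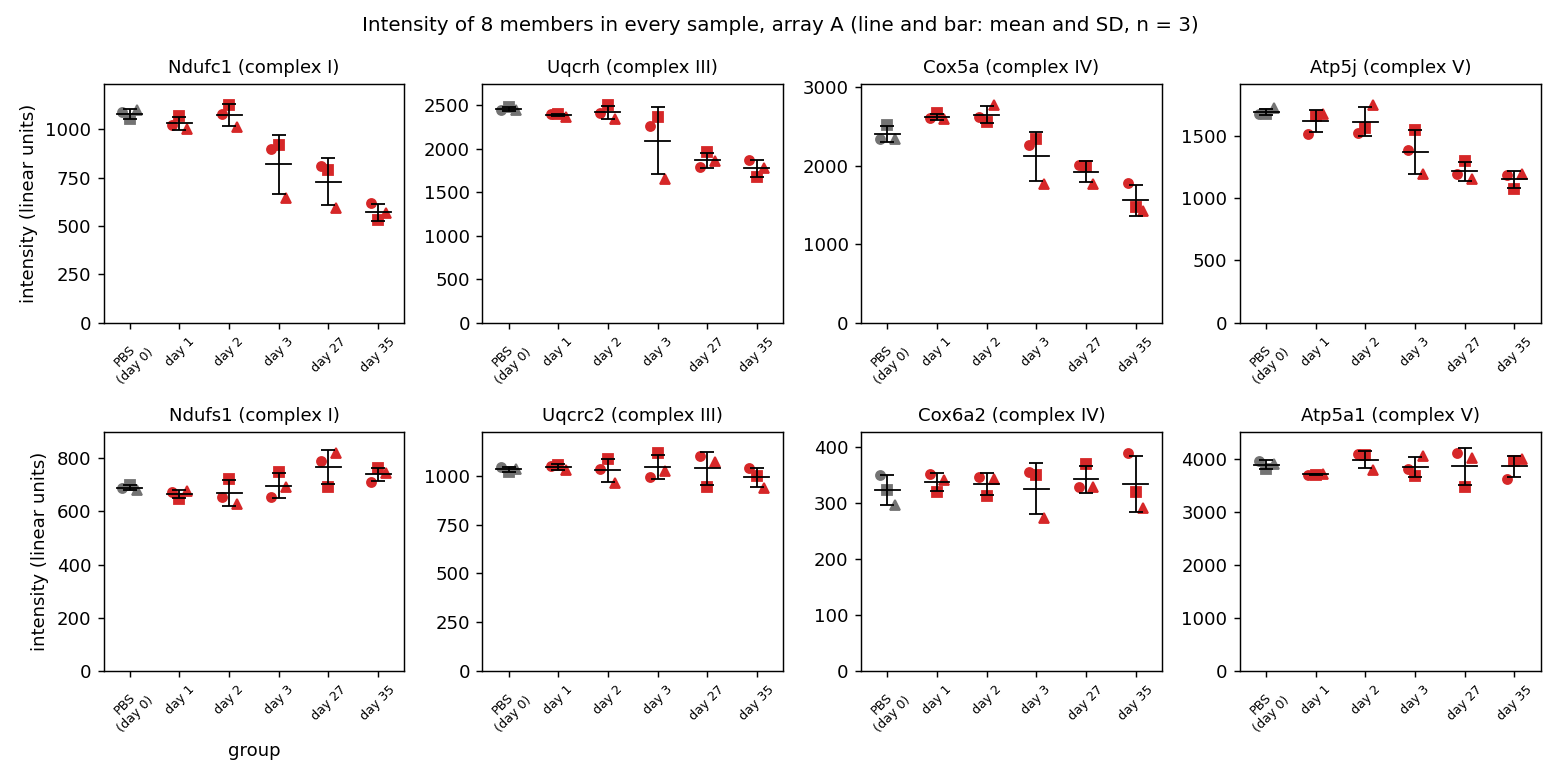
Intensity in linear units (y axis, starting at 0) of 8 members in every sample on array A by group (x axis), with PBS in grey, the soluble receptor in red, and the mean and SD (n = 3) in black. The upper row has the member with the smallest adjusted p of each complex, all with day 35 samples below the PBS samples, and the lower row has Ndufs1 and the array A members of complexes III, IV and V with the largest adjusted p, where day 35 and PBS overlap except in Ndufs1.

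Complex III hands electrons from ubiquinol to cytochrome c. Of its 13 probe sets 5 fell at day 35 (median -0.27), and 4 of its 8 genes. Uqcrh, the acidic hinge protein beside cytochrome c1, read 1873, 1675 and 1778 at day 35, against 2446, 2477 and 2447 in PBS samples. The groups were widely apart, and day 27, at 1786, 1959 and 1859.8, overlapped day 35. Its change was -0.40 (SE 0.096, adjusted p = 0.0281) at day 27 and -0.47 (SE 0.096, adjusted p = 0.00585) at day 35. Its second probe set, on array B, read 663, 718 and 747 at day 35, against 1137, 1411 and 1255 in PBS samples, a change of -0.83 (SE 0.12, adjusted p = 0.000997).

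Uqcrfs1, the Rieske iron-sulfur protein and part of the catalytic core, read 1135, 1021 and 1166 at day 35, against 1397, 1408 and 1532 in PBS samples, and fell by 0.39 (SE 0.086, adjusted p = 0.0101). It was the one core subunit of complex III that was called. Uqcr11, a small accessory subunit, read 553, 429 and 581 at day 35, against 789, 765 and 893 in PBS samples, and fell by 0.66 (SE 0.15, adjusted p = 0.0107). Both genes had no overlap between day 35 and PBS, and neither was called at day 27. The day 27 change was -0.22 (SE 0.086, adjusted p = 0.18) for Uqcrfs1 and -0.27 (SE 0.15, adjusted p = 0.335) for Uqcr11.

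Uqcrc1 and Uqcrc2, the large core proteins on the matrix side, were at -0.074 (SE 0.070, adjusted p = 0.567) and -0.059 (SE 0.072, adjusted p = 0.674). Uqcrc2 read 1038, 1001 and 939 at day 35, against 1044, 1019.7 and 1036 in PBS samples, which overlap. Uqcrq, a small subunit near the ubiquinone site, fell by 0.64 (SE 0.15, adjusted p = 0.0139) on its brightest probe set, and Uqcrb, next to it in the complex, was at -0.30 (SE 0.093, adjusted p = 0.0592). Uqcr10, another small subunit, was at 0.098 (SE 0.081, adjusted p = 0.505).

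Complex IV, cytochrome c oxidase, reduces oxygen. Its catalytic subunits are encoded in the mitochondrial genome, so each nuclear member is an accessory subunit or a tissue isoform. Of the 26 probe sets 14 fell at day 35 (median -0.36), and 7 of 13 genes on array A. All 14 calls were among the 22 probe sets of the subunits found in most tissues, and 0 of 4 were among tissue isoforms. The isoforms Cox4i2, Cox6a2 and Cox8b were dim, with a mean log2 intensity of 8.54, 8.38 and 7.99, against 11.6 for Cox4i1. Whether their signal reflects expression in the node was not tested.

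Cox5a, on the matrix side of the enzyme, read 1777, 1474 and 1417 at day 35, against 2336, 2516 and 2345 in PBS samples. Its days 1 and 2, at 2620.1 ± 38.4 and 2646 ± 110.2 (SD, n = 3 each), lay above the PBS mean of 2399 ± 102. The change was -0.32 (SE 0.098, adjusted p = 0.0799) at day 27, short of the threshold, and -0.63 (SE 0.098, adjusted p = 0.00112) at day 35. Other probe sets of Cox5a were at -0.34 (SE 0.099, adjusted p = 0.0455) and -0.26 (SE 0.16, adjusted p = 0.357) at day 35, the latter not called. Cox7a2, the form of subunit VIIa found outside muscle, read 1593, 1334 and 1660.0 at day 35, against 2361, 2469.8 and 2468 in PBS samples. Cox6c, a single-pass membrane subunit, read 2010.2, 1639 and 1885 at day 35, against 2753, 2829 and 2627 in PBS samples. On these probe sets neither gene had a day 35 sample within its PBS range, and they fell by 0.68 (SE 0.13, adjusted p = 0.00469) and 0.57 (SE 0.12, adjusted p = 0.00519). A second probe set of Cox7a2 was at -0.27 (SE 0.11, adjusted p = 0.146), not called.

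Cox8a, the smallest subunit, and Cox4i1, the largest nuclear-encoded one, changed by -0.40 (SE 0.086, adjusted p = 0.0079) and -0.34 (SE 0.074, adjusted p = 0.00912). Another probe set of Cox8a was at 0.053, not called. Cox6b1, which faces the intermembrane space, and Cox6a1, the liver-type form of subunit VIa, changed by -0.39 (SE 0.10, adjusted p = 0.0264) and -0.39 (SE 0.10, adjusted p = 0.0271). Cox7a2l, which joins complexes III and IV into supercomplexes, was at -0.20 (SE 0.089, adjusted p = 0.175). Among the isoforms typical of other tissues, Cox6a2, the heart and muscle form, read 389, 321 and 292 at day 35, against 350.1, 323 and 297 in PBS samples, a change of 0.040 (SE 0.11, adjusted p = 0.867). Cox4i2, the form of subunit IV best known from lung, was at -0.071 (SE 0.11, adjusted p = 0.742) and Cox8b, a muscle and brown fat form, at -0.37 (SE 0.15, adjusted p = 0.156).

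Complex V is built of a catalytic head (F1), a ring of c subunits in the membrane, a peripheral stalk and small membrane subunits that join the enzyme into dimers. At day 35, 14 of its 25 probe sets fell (median -0.29), and 10 of its 16 genes. The calls were 7 of 7 among the small membrane subunits (median -0.54), 3 of 6 in the peripheral stalk, 2 of 3 in the c ring and 2 of 3 among the small F1 subunits. Among the probe sets of the larger F1 subunits, Atp5a1, Atp5b and Atp5c1, 0 of 6 were called (median -0.07).

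In the peripheral stalk, Atp5j (coupling factor F6) read 1189, 1075 and 1195 at day 35, against 1681, 1681 and 1724 in PBS samples. Day 27, at 1195, 1303 and 1156, overlapped day 35, and at day 3 the values were 1388, 1546 and 1192, all below the PBS samples. The changes were -0.31 (SE 0.087, adjusted p = 0.155) at day 3, -0.48 (SE 0.087, adjusted p = 0.0049) at day 27 and -0.56 (SE 0.087, adjusted p = 0.00112) at day 35. Atp5h (subunit d), whose promoter is printed above, read 1527, 1283 and 1399.6 at day 35, against 1938, 1917 and 2046 in PBS samples. It fell by 0.49 (SE 0.082, adjusted p = 0.00185), with no overlap. A second probe set of Atp5h was at -0.15, not called. Atp5o, which joins the stalk to the head, changed by -0.34 (SE 0.080, adjusted p = 0.0136), and Atp5pb (subunit b) was at -0.26 (SE 0.087, adjusted p = 0.0772).

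Atp5e, the epsilon subunit at the foot of the head, read 849.6, 731 and 683 at day 35, against 1160.3, 1226 and 1198 in PBS samples, and fell by 0.67 (SE 0.12, adjusted p = 0.00335). Among the membrane subunits, Atp5j2 (subunit f) averaged 959.8 ± 65.0 at day 35 and 1436 ± 91.6 in PBS samples (SD, n = 3 each), a change of -0.58 (SE 0.11, adjusted p = 0.00358). Atp5l (subunit g) changed by -0.47 (SE 0.11, adjusted p = 0.0117) and Atp5k (subunit e) by -0.54 (SE 0.14, adjusted p = 0.0297). The genes Atp5g1, Atp5g2 and Atp5g3 encode the same mature c subunit behind different import signals. Atp5g1 and Atp5g3 fell, by 0.43 (SE 0.11, adjusted p = 0.0186) and 0.29 (SE 0.064, adjusted p = 0.00949), and Atp5g2 was at -0.26 (SE 0.090, adjusted p = 0.085).

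The alpha subunit Atp5a1 read 3623, 3960.0 and 3990.4 at day 35, against 3956, 3799 and 3911 in PBS samples. The groups overlap, and its change was -0.013 (SE 0.066, adjusted p = 0.932). Atp5b, the catalytic beta subunit, was at -0.14 (SE 0.080, adjusted p = 0.321), and Atp5c1, the gamma subunit that turns inside the head, at -0.14 (SE 0.079, adjusted p = 0.326).

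Late against early treatment, a contrast that does not use the PBS samples, was made as well. Of the 127 members on array A, 91 were lower and 1 (Ndufs1) was higher at days 27 and 35 than at days 1, 2 and 3, against a background of 10.4% lower and 4.98% higher. The median was -0.28 (0.017 over all tested probe sets). By complex, 49 of 63 probe sets were lower in complex I (median -0.30), 6 of 13 in complex III (-0.16), 19 of 26 in complex IV (-0.29) and 17 of 25 in complex V (-0.26). Of the core probe sets 10 of 26 were lower (median -0.13), and of the others 81 of 101 (median -0.33). Without the 3 samples of low weight, 98 members were lower and 2 higher (background 11.6% lower, with 1791 of all 12231 higher). Among the core 11 were then lower and 2 higher, and among the others 87 were lower. All 72 probe sets that fell at day 35 against PBS were among the 91, and both comparisons use the day 35 samples. With the beta actin ratio as a covariate, 1 member was called and the median was -0.29. Between day 35 and day 27, 0 members were called (background 0%), with 18 at an unadjusted p under 0.05 (815 of all 12231) and a median of -0.13 (-0.012 over all). Of the 127, 116 were below 0 in this contrast, as were 6712 of all 12231.

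Several genes were seen by more than 1 probe set, which need not see the same transcripts. Of the 39 genes with at least 2 tested probe sets, 6 had probe sets over 0.5 log2 units apart at day 35. Over the 72 tested genes, all tested probe sets fell in 32, some in 18 and none in 22. Ndufa7, an accessory subunit of complex I, had 5 on array A. Of these, a pair changed by -0.78 (SE 0.15, adjusted p = 0.00457) and -0.83 (SE 0.14, adjusted p = 0.00147). The other 3, including the brightest, lay between -0.17 and -0.0088, with adjusted p of at least 0.263. Uqcrq had 1 probe set at -0.64 and 2 at -0.061 and 0.052. For Ndufa3, Ndufb2 and Atp5j2 the pair on array A fell and the 1 on array B lay at 0.30, 0.20 and 0.14, not called. The array B probe sets of Ndufa3 and Ndufb2 were dim, with a mean log2 intensity of 7.47 and 7.29, which limits what they can show. Ndufc2, an accessory membrane-arm subunit, fell on both probe sets of array A (-0.43 and -0.48) and most on 1 probe set of array B, which read 450, 452 and 436 at day 35, against 918, 952 and 927 in PBS samples, a change of -1.06 (SE 0.14, adjusted p = 0.000558). Its other probe set on array B was at 0.081, not called, and was dim, with a mean log2 intensity of 7.25 against 9.49.

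**Figure D4:**
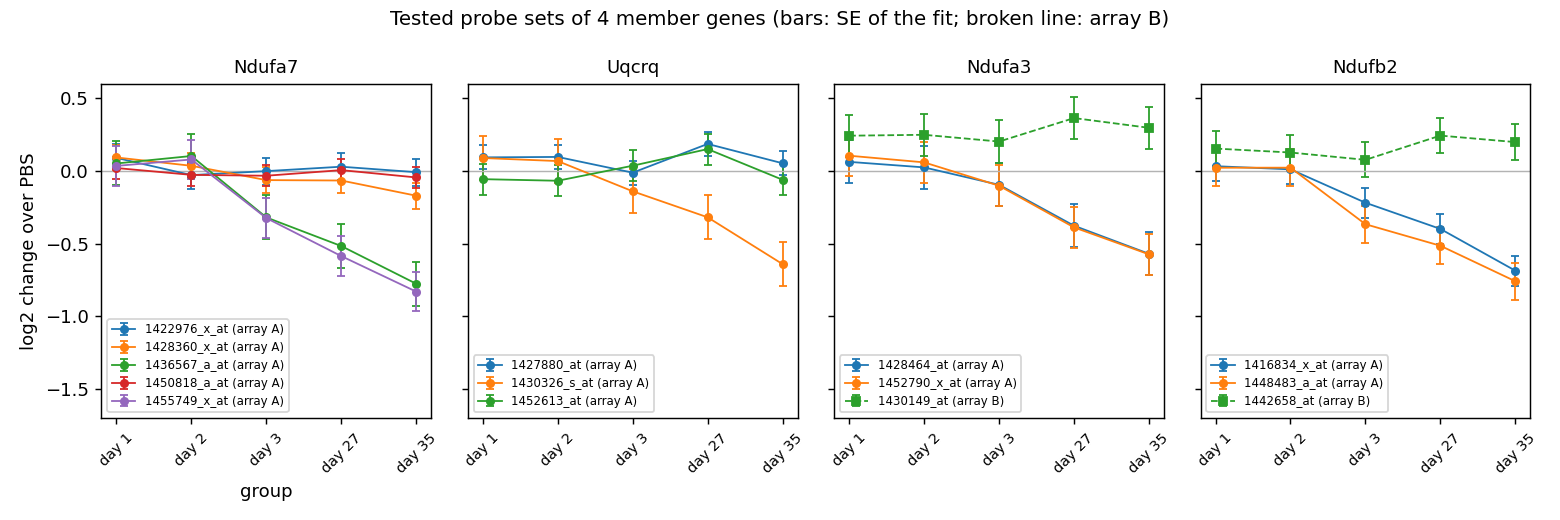
Log2 change over PBS (y axis) at each day of treatment (x axis) for the tested probe sets of Ndufa7, Uqcrq, Ndufa3 and Ndufb2, with the SE of the fit as bars, full lines for array A and broken lines for array B. In Ndufa7 a pair of probe sets reaches -0.78 and -0.83 at day 35 while the other 3 stay between -0.17 and -0.0088. The array B probe sets of Ndufa3 and Ndufb2 are dim.

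By kind of probe set on array A (letters in the name, where x_at marks probes that may also match other transcripts), 33 of 55 plain (at), 22 of 36 a_at, 9 of 14 s_at and 8 of 22 x_at probe sets fell at day 35. Their medians were -0.36, -0.36, -0.45 and -0.25. Many of these genes have processed pseudogenes, so the gene behind such signals is uncertain. On array B, limma called 0 of the 8 tested members at days 1, 2, 3 and 27 (background 0.00799%, 0.024%, 0.0799% and 0.328% of all 12516 tested probe sets) and 0 between days 35 and 27 (background 0%), with 0, 0, 1, 4 and 2 at an unadjusted p under 0.05. Late against early, 2 were lower (background 1.42%). At day 35, 2 of the 8 tested members fell (Ndufc2 and Uqcrh, above) against a background of 2.88%, and 1 rose against 0.703%. The one that rose was Cox8c, known from testis, at 306, 315 and 368 at day 35, against 233, 262 and 241 in PBS samples, a change of 0.42 (SE 0.11, adjusted p = 0.0455). Cox8c was not called when any 1 PBS or day 35 sample was left out. The probe set of Cox8c on array A was at -0.060 (adjusted p = 0.813).

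Other genes of the pathway were taken from lists, which were drawn up with earlier results of these data known. The counts are of genes on array A, by the brightest tested probe set, where 4.76% of all genes were lower and 1.7% higher at day 35. Of the 4 subunits of complex II, Sdhb fell by 0.28 (SE 0.066, adjusted p = 0.0149) at day 35, and Sdha, Sdhc and Sdhd lay between -0.13 and 0.043, not called. Cytochrome c (Cycs) fell by 0.54 (SE 0.10, adjusted p = 0.00341). On array B another probe set of Cycs had the opposite sign, at 0.22 (SE 0.12, adjusted p = 0.307) at day 35, and rose by 0.32 (SE 0.075, adjusted p = 0.0304) late against early. Cytochrome c1 (Cyc1), the core haem subunit of complex III that its name keeps out of the members, was at -3e-04. Of 25 tested assembly factors 4 were lower (median -0.095), Cox17, Coa6, Cox16 and Surf1, with Cox17, a small copper carrier, at -0.76 (SE 0.11, adjusted p = 0.00079). Of 41 large enzymes of the mitochondrial matrix 1 was lower (median -0.10), Etfa, which takes electrons from fatty acid oxidation. Of 12 transcriptional regulators of mitochondrial genes (among them Nrf1, Gabpa, Yy1 and Tfam) 0 were called either way (median 0.10).

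Lists drawn up with other short proteins in view were read in the same way, although no table of protein lengths was used. Of 17 tested genes on a list of mitochondrial import and related proteins, not all of them small, 7 were lower at day 35 (median -0.19). Tomm7 of the outer membrane translocase was at -0.91 (SE 0.15, adjusted p = 0.00142). A second list was drawn up for other compartments (spliceosome, proteasome, translocon, polymerase and others, with mitochondrial Romo1 also on it). Of its 34 tested genes 17 were lower and 0 higher (median -0.28), with Sec61b at -0.67 (SE 0.12, adjusted p = 0.00296) and Snrpg at -0.60 (SE 0.10, adjusted p = 0.00224). At day 27 the counts were 3 of 17 (median -0.089) and 9 of 34 (median -0.22), against 2.12% of all genes. On array B, 5 of 6 tested genes of the second list were lower at day 35, against 3.31% of all 6396 genes tested there. Over the 18 arrays, the genes whose log2 intensity followed the mean of the members most closely were Rps27l, Cops9, Elob, Romo1, Atox1, Micos13, Smdt1 and Chchd1, with Pearson correlations from 0.963 to 0.977. These points share the arrays and their scaling, and the 8 genes changed by -0.87 to -0.40 at day 35. Of the 8, Romo1, Micos13, Smdt1 and Chchd1 are mitochondrial, and Rps27l, Cops9, Elob and Atox1 are short proteins of other compartments.

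Markers of several cell types were read in the same samples, again on array A unless named. Of 13 tested fibroblast and matrix genes 6 were higher at day 35 (median 0.30), and the summed intensity of that list was 23347 to 23505 at day 35, against 19709.5 to 21082 in PBS samples. At days 1 and 2 that sum was 22353 to 26914. Of 10 white fat genes 3 were lower (median -0.43), with sums of 18746 to 23783 at day 35, against 25628 to 27945 in PBS samples. Of 9 endothelial genes 2 were lower, the high endothelial venule genes Glycam1 and Madcam1, with sums of 9965 to 10982 at day 35, against 12117 to 14325 in PBS samples. At day 2 that sum was 9892.5 to 10547.5. Of lymphocyte genes, 1 of 8 for B cells (Cd79a) and 0 of 9 for T cells were lower, and the B cell sum was 13883 to 14706 at day 35, against 14354 to 15016 in PBS samples. Plasma cell genes had 1 of 5 higher (Igha), with sums of 15667 to 17456 at day 35, against 12470 to 14608 in PBS samples. The plasma cell gene tested on array B, Mzb1, was at -0.60 (SE 0.19, adjusted p = 0.0953) at day 35 and fell by 0.52 (SE 0.12, adjusted p = 0.0364) late against early. Of the muscle list, Ckmt2, Myh4, Myh7, Acta1, Tnnt3 and Mylpf were below the floor on all 18 arrays, and 1 of 4 tested muscle genes (Pvalb) was higher. The part of these cell types in the result was not tested.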

How the data were processed

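The authors deposited a linear intensity for each probe set on each array. Their software, background correction and scaling were not given in the labels or files used here. Array medians within each array type were already close, so no further scaling was done. Probe sets were named from the platform annotation, and all 78 member symbols equal those of the RefSeq table. Control probe sets (64 per array) were left out. Intensities under the 20th percentile of their table (122.6 for array A and 76.57 for array B) were set to that value before log2 was taken. Among member probe sets, 5.56% of values on array A and 24.5% on array B lay below that floor. Probe sets above the table median on at least 3 of 18 arrays entered the test, 12231 of array A and 12516 of array B. A separate fit was made for each table with limma 3.58.1 in R 4.3.3 (lmFit, eBayes with a mean-variance trend), all 6 groups in 1 fit. Tests were two-sided, with Benjamini-Hochberg adjustment over all tested probe sets of a table and contrast and a threshold of 0.05. Log2 changes have the treated or the later group on top and carry the SE of the fit, and array number limits the precision. The scripts were tested on simulated data.

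For a gene with several tested probe sets the brightest stands for it. In each complex, the 3 genes with the smallest adjusted p at day 35 and the one with the largest were described in full. The next 3, members called higher in any contrast, genes whose probe sets differed by over 0.5 log2 units, and isoform pairs were described in short. Other named members illustrate roles and were chosen after their values were seen. The members and lists were chosen with earlier results of these data known, and the division into core and other subunits after the members' values were seen. For 1 sample (day 1, array B) the source label is not a tissue, and the title gave the group.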

Additional observations from a re-analysis of the deposited data

Results flagged for a closer look

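The change between late (days 27 and 35) and early treatment (days 1, 2 and 3) differed from 0 in the limma fit for 92 member probe sets on array A, 91 of them lower and 1 higher, and for 2 on array B.

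Probe sets listed under several symbols were left out of the members, and 6 of them that hold a subunit's symbol were called lower at day 35 on array A. The probe set of Ndufs5 and its pseudogene changed by -0.68 (log2). The pair for Ndufb4 and its near copies Ndufb4b and Ndufb4c changed by -0.56 and -0.58, and Ndufb4 itself had no tested probe set of its own. The probe set shared by Ndufa11 and Ndufa11b changed by -0.56, that of Ndufs6 and Ndufs6b by -0.49, and that of Ndufab1 and its pseudogene by -0.40. These probe sets cannot assign the change to 1 of their genes.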

How the results depend on the processing

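Counts of called members on array A were recomputed under each alternative. At day 27 the 19 calls became 44 with arrays set to a common median, 7 without the filter on dim probe sets, 75 with array weights (69 lower and 6 higher, with 20.3% of all probe sets called), 8 with only the groups compared in the fit, 67 without the 3 samples of low weight, 8 with the Gapdh ratio and 0 with the beta actin ratio as a covariate, and 11 counted by gene. Leaving out single samples gave 2 to 39. At day 35 the 72 calls became 0 with the beta actin ratio and 44 by gene, and 32 (without day 35 replicate 2) to 72 without single samples. Late against early, 92 became 1 with the beta actin ratio and 54 by gene, and 74 to 99 without single samples. Array weights gave 3 calls at day 2 (all higher, with 4.38% of all probe sets called), 1 at day 3 (lower) and 12 for day 35 against day 27 (all lower), where the fit without weights gave 0. The 12 have no background share beside them and are not read as a further fall of the members. The same limit holds for other counts here without a share. The cause of these shifts was not tested.

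On array B, array weights gave 2 calls at day 2 and 3 at day 27. The day 2 calls rest mostly on replicate 2, whose weight was 17.339, against 0.517 and 0.64 for replicates 1 and 3. At day 27, 2 were called without the samples of low weight on array A, and 0 to 1 without single samples. These counts have no background share beside them and are not read as a change of the members. With the beta actin ratio, 0 were called at day 35 and 0 late against early.

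The labels do not say what replicate numbers share. The group mean of each probe set was subtracted, and the remaining values were correlated between samples of different groups. Of the same-number pairs, 18 of 45 on array A and 34 of 45 on array B then correlated above 0.1, not every pair. On array B 16 of 18 samples correlated best, by these values, with a sample of their own number, and on array A 9 of 18. That is a hint from the data and not the design that numbers share something on array B. With the replicate number as a block, array A gave 23 calls at day 27, 73 at day 35 and 92 late against early, and array B gave 3 at day 27, where the fit without the block gave 0.

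Signs turned for members near 0 in the fit as reported. Ndufa7 was at 0.0046 and Atp5a1 at 0.087 with quantile scaling. With array weights Atp5a1 was at 0.0037, Cox8c (array A) at 0.11 and Ndufa4l2 at -0.0027. Atp5a1 was at 0.0044 with the Gapdh ratio and 0.028 with the beta actin ratio, and Ndufs1 at -0.014 with the beta actin ratio too. Ndufa4l2 was at -0.030 with a common median. Without the 3 samples of low weight Cox8c was at 0.14 and Ndufa4l2 at -0.054. Leaving out single samples gave -0.12 to 0.010 for Cox4i2, -0.076 to 0.13 for Cox6a2, -0.17 to 0.14 for Cox8c, -0.038 to 0.032 for Atp5a1 and -0.066 to 0.075 for Ndufa4l2. None of these was called under those settings. Of the member values on array B, 24.5% lay below the floor, which limits what those probe sets can show.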
